A study of Mus musculus with 12 samples.

Results

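The genes described here encode nucleolar proteins that build ribosomes. They are 51 mouse genes listed by symbol for the processing of ribosomal RNA, for the box C/D and H/ACA particles and for the assembly of ribosome precursors, and the rule that lists them uses no measured value. Rows with these symbols were present for 50 genes in both expression tables, which hold 23973 genes for the marrow cultures and 24015 for the spleen cultures. Noc2l was not analysed here. The 50 genes fall into 6 abundant nucleolar proteins and regulators, 7 proteins of the box C/D and H/ACA particles, 19 factors of small subunit assembly and 18 factors of large subunit assembly. All 50 passed the filter on low counts in both cultures.

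Ribosomes are made in the nucleolus, where RNA polymerase I copies the ribosomal DNA into a long precursor RNA. Small nucleolar RNAs guide enzymes to that precursor, the box C/D particles for methylation of the ribose and the H/ACA particles for the change of uridine to pseudouridine, while large sets of assembly factors fold and cut the RNA and place the ribosomal proteins on it. MYC, a transcription factor that binds the E-box CACGTG, is known as an activator of this production line in dividing lymphocytes.

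RNA was sequenced from cultured primary B cells. The donors were wild-type (WT) mice and littermates with T58A, a point mutation that puts alanine in place of a threonine of MYC. Phosphorylation of that threonine marks the protein for degradation. B cells of the bone marrow, called immature in the series design, were grown for 48 h with IL7, a cytokine that drives B cell precursors to divide, and mature splenic B cells for 48 h with lipopolysaccharide (LPS), a component of bacteria that makes such cells divide and turn into plasmablasts. There were 3 libraries in each of the 4 groups, and their titles join a WT to a T58A sample by pair number. No other allele or agent is named for any group. The labels used here give neither the age and strain of the mice nor the number of mutated copies, and reads of Myc do not tell the mutated from the normal transcript, so they do not check the genotype.

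Reads assigned to genes numbered 8486753 to 10201113 per IL7 library and 5110746 to 9332410 per LPS library. Summed B cell markers were present in every library, B cell precursor markers ran from 16343 to 23881 normalised reads in IL7 and from 1156 to 1609.6 in LPS cultures, and plasmablast markers from 8794 to 10170.3 in IL7 and from 28416 to 109302 in LPS cultures. By Xist and the Y-linked genes, WT 1 and WT 2 were female and WT 3 and all T58A libraries male in both cultures, so sex and genotype cannot be told apart in pairs 1 and 2, and pair 3 is the only one of the same sex. The female library IL7 WT 2 also held Y-linked reads, from 31.7 normalised reads of Kdm5d to 58.9 of Eif2s3y, against 466 of Kdm5d in the male WT 3. In the LPS table the same header stands over a pair of T58A columns, so the number does not tell them apart, and they are named here T58A a and T58A b in the order of the columns. No label ties a library to its animal. The p-values measure the spread between these libraries or, where the pair enters the fit, the spread of the change across pairs. Either spread may in part be technical. A lower value in such bulk samples can come from fewer cells of a type or from less RNA per cell, which cannot be told apart.

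The level of each gene was first set out in WT cells, in RPKM, reads scaled to exon length and to the library total. The length joins all exons annotated for a gene in GENCODE M21, 11955 bases for Wdr12, 10188 for Ncl and 4209 for Fbl. Where the cells use fewer of these exons the level is understated. Which exons they use was not tested, so the order of genes and roles by level is approximate. All 50 genes were higher in IL7 than in LPS cultures, with a median ratio of 1.88. The tables were normalised separately and the cultures differ in tissue and stimulus, so this is a description without a test. The ratio over all genes is not given here, so this count has no share of all genes beside it. Nucleolin (Ncl), which binds ribosomal RNA precursors, was the most abundant of the 50 in both cultures, at 261 ± 58.7 RPKM with IL7 and 126 ± 17.0 with LPS (mean ± SD, n = 3). The median of the 50 genes stood at the 86.5th percentile of all tested genes in IL7 and at the 72.8th in LPS cultures, and 48 and 43 of them were above the median gene.

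The abundant nucleolar proteins spanned 42.7 to 261 RPKM in IL7 WT cells and 20.7 to 126 in LPS WT cells. The histone and RNA chaperone nucleophosmin (Npm1) followed Ncl at 148 ± 27.1 and 101 ± 10.3. The particle proteins spanned 8.89 to 128 in IL7 and 3.46 to 62.1 in LPS cultures, with Nhp2 of the H/ACA particles at the top and fibrillarin (Fbl), the methyltransferase of the box C/D particles, at the bottom. In IL7 cultures the assembly factors lay lower, with medians of 26.4 for the small and 38.01 for the large subunit against 63.1 for the particle proteins. In LPS cultures these medians were 14.7, 22.0 and 19.1, so that the large subunit factors lay above the particle proteins there. The ratio between the cultures was smallest for the GTPase Gnl2, at 1.02 (29.6 ± 3.55 and 29.1 ± 2.19), and largest for Bysl, a factor of small subunit assembly, at 7.04 (87.2 ± 4.57 and 12.4 ± 1.70). The levels of Gnl2 in the cultures differed by less than their SD, and those of Bysl by more. Of the exon bases of Bysl, 9.37% overlap those of Ccnd3, and how far reads from Ccnd3 add to its level was not tested.

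**Figure D1:**
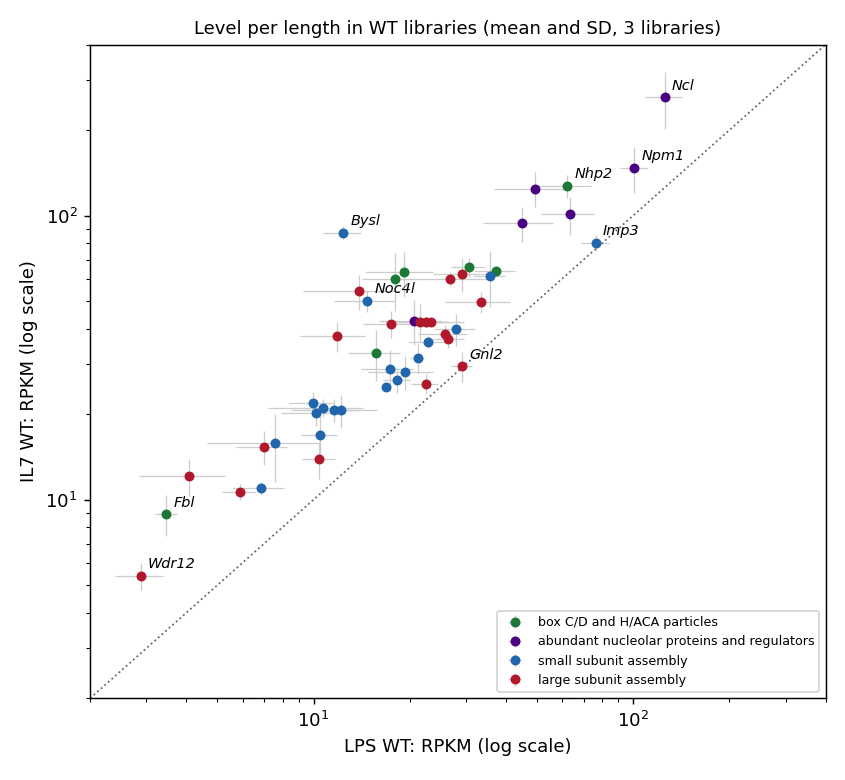
Each point is 1 of the 50 genes, with its level in RPKM in WT LPS cultures (x axis, log scale) and WT IL7 cultures (y axis, log scale), bars giving the SD of 3 libraries, colours the role and the dotted line equal levels. All 50 points lie above the line, Gnl2 and Imp3 closest to it and Bysl farthest.

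The comparison in IL7 cultures asks whether T58A changes these genes in marrow B cells. With the pair as a block, 30 of the 50 genes rose in T58A cultures and 0 fell (limma, adjusted p under 0.05), where 6.41% of all 11604 tested genes rose and 6.31% fell. The fitted log2 change was positive for 49 of 50 genes (49.0% of all tested genes), and its median was 0.30, against -0.01 over all tested genes. The changes were moderate, from -0.18 for Bysl to 0.56 for Heatr1. In 46 of 50 genes T58A was above WT in every pair (25.9% of all tested genes), and the exceptions were Fbl, Gar1, Gnl2 and Bysl.

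The abundant nucleolar proteins rose in 5 of 6 genes, with a median log2 change of 0.36. The RNA helicase Ddx21, which links RNA polymerase I to RNA processing, on chromosome 10 from 62580251 to 62602281 (GRCm38), had normalised read counts of 4042, 5002 and 5524 in WT 1 to 3, and 6200.1, 7035 and 7289.6 in T58A 1 to 3. Every T58A value exceeded every WT value, and the log2 change was 0.50 ± 0.07 (SE; limma adjusted p = 0.00505). Mybbp1a, a nucleolar regulator of ribosomal RNA synthesis and processing, on chromosome 11 from 72441355 to 72451768, was at 5780.4, 6623 and 7723 in WT 1 to 3, and 8798, 9992 and 9934 in T58A 1 to 3. These groups did not overlap either, and the log2 change was 0.52 ± 0.07 (SE; limma adjusted p = 0.00555). Ncl was at 19285, 24188 and 30598 in WT 1 to 3, and 27587, 31849 and 34566 in T58A 1 to 3. Its T58A 1 lay below its WT 3, so that the groups overlapped although the gene rose in each pair, with a log2 change of 0.36 ± 0.08 (SE; limma adjusted p = 0.0239). Npm1 had the largest p of this group, at 3654 ± 691 for WT against 4325 ± 144 for T58A (SD, n = 3), with a log2 change of 0.26 ± 0.08 (SE; limma adjusted p = 0.0794). The remaining members, Nolc1, a chaperone of the nucleolar particles, and nucleostemin (Gnl3), changed by 0.37 ± 0.06 and 0.31 ± 0.08 (SE) and passed.

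Of the box C/D and H/ACA proteins 4 of 7 rose, with a median of 0.28. Nop56, a core protein of the box C/D particles, on chromosome 2 from 130274430 to 130279313, was at 2288, 2535 and 2690.0 in WT 1 to 3, and 3178, 3214 and 3149 in T58A 1 to 3. The WT libraries spread over a wider range than the T58A libraries, which were close together and above them, and the log2 change was 0.35 ± 0.07 (SE; limma adjusted p = 0.0175). Nhp2 was at 1254, 1312 and 1506 in WT 1 to 3, and 1632, 1653 and 1764 in T58A 1 to 3, again without overlap, with a log2 change of 0.31 ± 0.07 (SE; limma adjusted p = 0.0221). Nop58, the partner of Nop56, and dyskerin (Dkc1), the pseudouridine synthase of the H/ACA particles, also rose, by 0.28 ± 0.08 and 0.34 ± 0.09 (SE). Fbl had the largest p, at 295, 336 and 412 in WT 1 to 3, and 366, 416 and 362 in T58A 1 to 3. It was higher in T58A in pairs 1 and 2 and lower in pair 3, and its log2 change was 0.14 ± 0.12 (SE; limma adjusted p = 0.453). Gar1 and Nop10, the small H/ACA proteins, changed by 0.15 ± 0.09 and 0.16 ± 0.08 (SE) and did not pass.

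Of the small subunit factors 13 of 19 rose, with a median of 0.31. Heatr1, a large scaffold of the early small subunit precursor, on chromosome 13 from 12395027 to 12440289, was at 1718, 2189 and 2243 in WT 1 to 3, and 2786, 3076 and 3182 in T58A 1 to 3. Every T58A library was above every WT library, and the log2 change of 0.56 ± 0.07 (SE; limma adjusted p = 0.00404) was a 1.48-fold difference of the fitted means. Rrp12, which takes part in the export and maturation of the precursor, on chromosome 19 from 41862851 to 41896173, was at 737, 795 and 961 in WT 1 to 3, and 1025, 1169.9 and 1213 in T58A 1 to 3. The groups did not overlap, and it changed by 0.46 ± 0.08 (SE; limma adjusted p = 0.00984). The scaffold Utp20 (0.56 ± 0.11), the cyclase-like factor Rcl1 (0.53 ± 0.09) and Nat10, which acetylates cytidines of the small subunit RNA (0.43 ± 0.07), were the other rising genes with a log2 change above that of Pwp2 (0.38 ± 0.09). The helicase Ddx10 had the largest p, at 916 ± 118 for WT against 986 ± 85.1 for T58A (SD, n = 3), with a log2 change of 0.11 ± 0.07 (SE; limma adjusted p = 0.346). Nob1, the nuclease that makes the mature end of the small subunit RNA, missed the threshold at 0.25 ± 0.07 (SE; limma adjusted p = 0.0529), although its groups did not overlap. The U3 particle proteins Imp3 and Rrp9 and Utp18 were the other positive genes that did not pass.

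Bysl, on chromosome 17 from 47599331 to 47611492, was the only one of the 50 with a negative change in IL7 cultures, and it is described for that value, outside the rule for named genes. It was at 3105, 2949 and 3311 in WT 1 to 3, and 2442, 2725 and 3132 in T58A 1 to 3. T58A was lower in each pair, with changes of -0.35, -0.11 and -0.08 on the log2 scale, but the groups overlapped. Its log2 change of -0.18 ± 0.07 (SE) missed the threshold (limma adjusted p = 0.134). Of its exon bases, 9.37% overlap those of Ccnd3 on the other strand. The library kit named in the labels does not mark strand, so reads from these bases cannot be told apart, and Ccnd3 was not analysed here.

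Of the large subunit factors 8 of 18 rose, with a median of 0.28. Rrp1b, a nucleolar protein of large subunit processing, on chromosome 17 from 32036100 to 32062865, was at 923, 1192 and 1170.5 in WT 1 to 3, and 1441, 1625 and 1459 in T58A 1 to 3, a log2 change of 0.47 ± 0.08 (SE; limma adjusted p = 0.0105). Nop2, a methyltransferase of the large subunit RNA, on chromosome 6 from 125131909 to 125144753, was at 1359.7, 1647 and 1806 in WT 1 to 3, and 1946, 2209 and 2185 in T58A 1 to 3, a log2 change of 0.41 ± 0.07 (SE; limma adjusted p = 0.0117). In both genes the groups did not overlap. Grwd1, Mrto4, Noc3l, Ddx56 and the methyltransferase Ftsj3 also rose, from 0.29 for Ddx56 to 0.41 for Grwd1. Bop1, Pes1 and Wdr12 form 1 complex that acts on the large subunit precursor. Bop1 rose by 0.31 ± 0.07 (SE), while Pes1 and Wdr12 changed by 0.21 ± 0.07 and 0.27 ± 0.09 (SE) and did not pass (limma adjusted p = 0.0742 and 0.0737). Gnl2 had the largest p of the 50, at 1011 ± 125 for WT against 1061 ± 27.5 for T58A (SD, n = 3) and with a log2 change of 0.08 ± 0.09 (SE; limma adjusted p = 0.591).

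**Figure D2:**
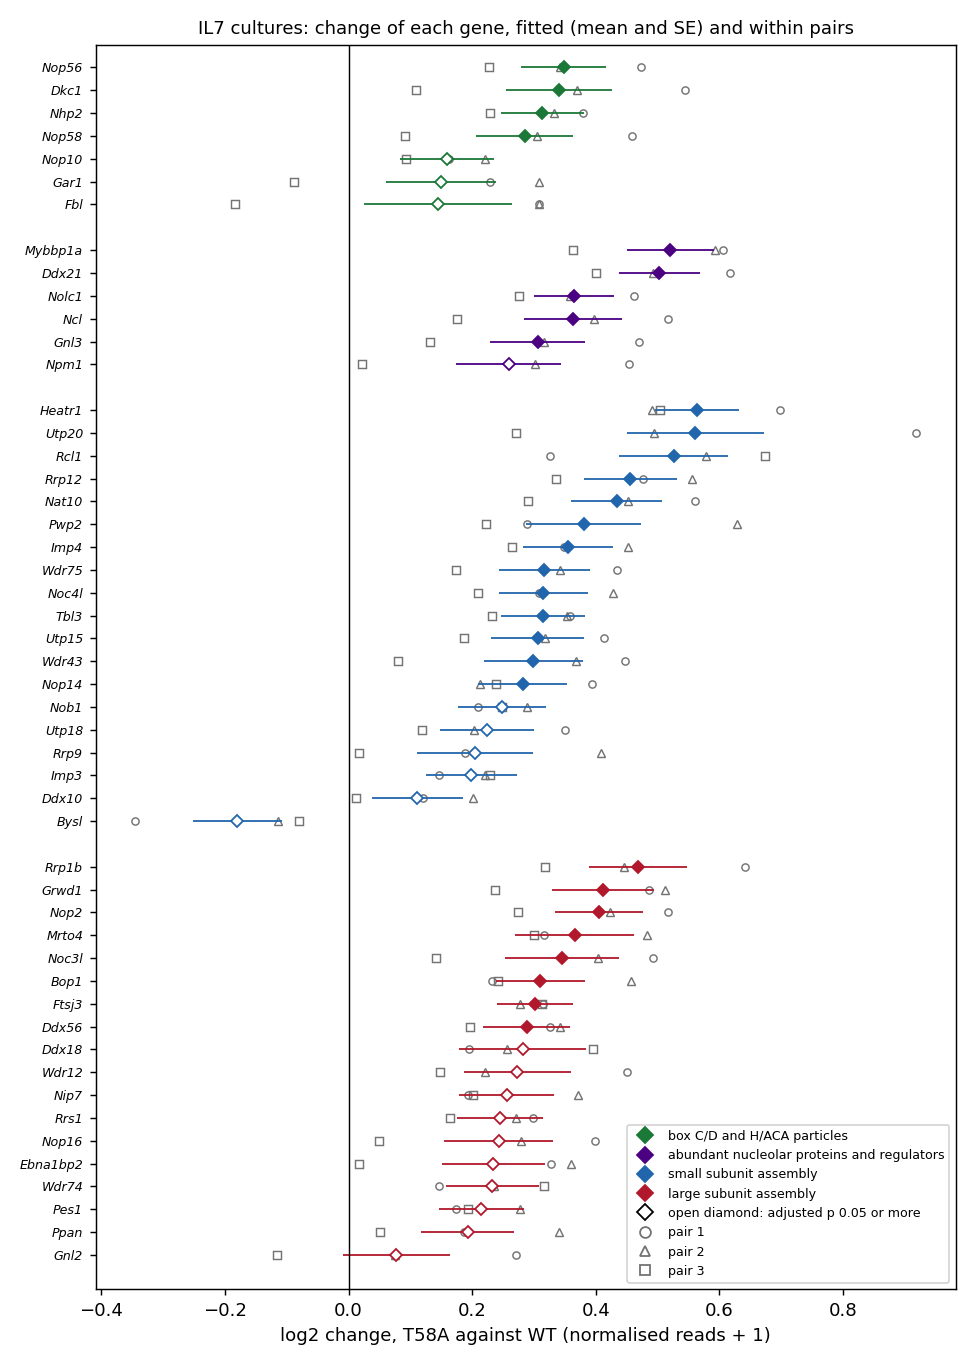
Log2 change of each of the 50 genes in IL7 cultures, T58A against WT, in normalised reads plus 1 (x axis), with genes in rows by role. Diamonds are fitted changes with their SE, filled where the adjusted p is under 0.05, and grey marks are the changes within pairs 1, 2 and 3. All diamonds but that of Bysl lie above 0, and the mark of pair 3 is the lowest in 38 of 50 rows.

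The pairs differed in size. The median log2 change of the 50 genes was 0.35 in pair 1, 0.34 in pair 2 and 0.21 in pair 3, the pair of the same sex, where 46 of 50 genes were still higher in T58A. The change was smallest in pair 3 for 38 of 50 genes. Among the WT libraries the male WT 3 was the highest in 45 of 50 genes and WT 1 the lowest in 40. The T58A libraries all exceeded the WT libraries in 30 of 50 genes (12.9% of all tested genes), 22 of them among those that rose. With sex as a further term the estimate rests on pair 3. The median was then 0.21, 46 of 50 changes were positive and 0 of the 50 passed limma, with 6 of 50 and 1226 of all 11604 genes at an unadjusted p under 0.05 and 42 calls over all genes. Without pair 2, which holds the WT library with Y-linked reads, 10 of 50 rose, all of them among the 30, namely Ddx21, Heatr1, Mybbp1a, Nat10, Nolc1, Nop2, Rcl1, Rrp12, Rrp1b and Utp20. Without pair 3, 22 rose, and Nhp2 was then at a limma adjusted p of 0.0526. The counts over all genes with 1 pair left out are given as a range in the last section.

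The call also rests on the block. Without it limma called 0 of the 50 genes, with 30 of 50 and 1960 of all 11604 genes at an unadjusted p under 0.05 and a smallest adjusted p of 0.133 among the 50, and 0 of all tested genes. On the recovered reads without the block, edgeR called 0 and DESeq2 8. With the block edgeR called 28 of the 50 higher and DESeq2 25, where 1424 and 995 of all genes were called in either direction. The authors' deposited table has 25 of the 50 higher and 0 lower at an adjusted p under 0.05, and its count over all genes is not given here.

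**Figure D3:**
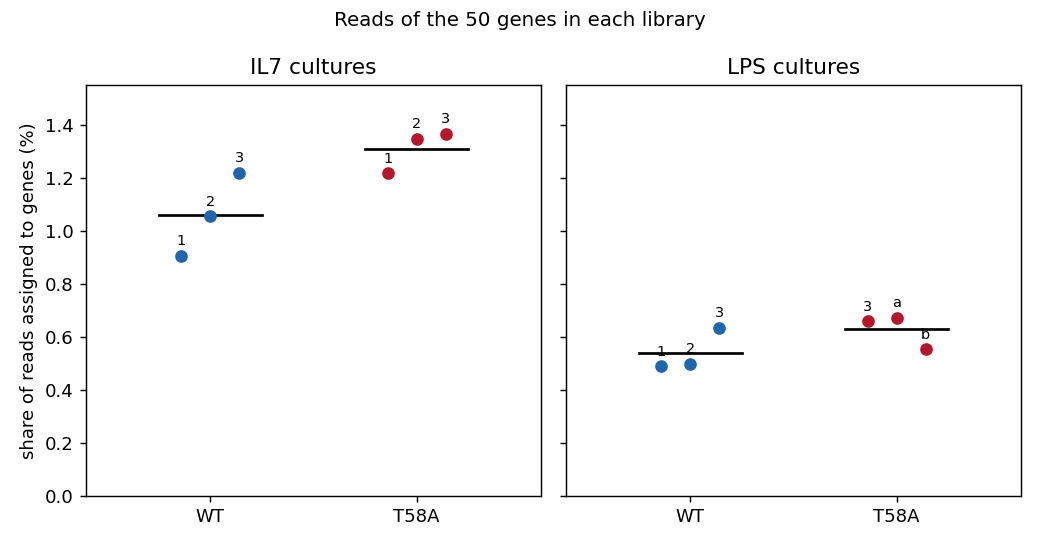
Share of all reads assigned to genes that came from the 50 genes, in percent (y axis), 1 point per library and a line at the group mean, with pair numbers above the points and a and b for the LPS T58A libraries that share a header. In IL7 cultures T58A 1 stands level with WT 3 at 1.22% and the others do not overlap, and in LPS cultures the groups overlap.

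Together the 50 genes took 0.906%, 1.05% and 1.22% of the reads in IL7 WT 1 to 3 and 1.22%, 1.35% and 1.37% in T58A 1 to 3. The order of the WT libraries was the same as for the single genes, with WT 1 lowest and WT 3 highest. Markers of other cells and of B cell stage moved as well. The summed level of 8 B cell markers was 37496 to 58591 normalised reads in WT and 31499.9 to 39226 in T58A, highest in WT 1, and 5 of 8 fell, with Ms4a1 at -0.77 and Blnk at -0.39 on the log2 scale (limma with the block, adjusted p under 0.05). The 8 precursor markers summed to 17712 to 23881 and 16343 to 19283, and 3 of 8 fell, with Rag1 at -0.78 and Il2ra at -0.64. The 14 myeloid markers summed to 2168 to 3634 and 1224 to 1903. The fitted change was negative for all 11 tested, with a median of -1.06, where it was negative for 5922 of all 11604 genes. In pair 2, 6 of the 11 were higher in T58A. Of the 11, 2 passed, Cybb at -1.06 and Ctss at -0.62, which B cells also express. Plasmablast markers summed to 8794 to 10170.3 and 9078 to 9592, with Sdc1 up at 0.47 and Igj down at -2.05 of 6 tested. The T and NK list, with Thy1 up at 0.56 and Il2rb down at -1.28, summed to 450.1 to 994 and 786 to 1139.9, and the erythroid and megakaryocyte list, with Car2 up at 0.50 and Itga2b down at -1.05, to 1347 to 2534 and 2119.7 to 2895. The erythroid genes Hba-a1, Hbb-b1 and Hbb-bs were at or under 3 reads in every library. So were the monocyte gene Cd14 and the T cell gene Cd8a, and in T58A libraries also Elane, Cd3g, Ncr1 and Gzmb. The part of these markers in the result was not tested.

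Other genes of the same production line were described from lists outside the 50. Of 81 other ribosome assembly factors 25 rose and 0 fell in IL7 cultures, with a median log2 change of 0.18, among them Urb1 (0.49 ± 0.07) and Nol9 (0.43 ± 0.07, SE). Of 14 subunits and factors of RNA polymerase I 3 rose and 0 fell, with a median of 0.12. Polr1a and Polr1b, its largest subunits, changed by 0.64 ± 0.07 and 0.62 ± 0.09 (SE), above the fitted changes of all 50 genes, a difference that was not tested. Of 11 subunits of the exosome, which trims the precursor RNA, 1 rose, the nuclease Dis3 (0.47 ± 0.08, SE), while Exosc2 (0.24 ± 0.08, SE) did not pass (limma adjusted p = 0.0742). The 49 ribosomal proteins tested had a median of -0.06, and 1 rose and 3 fell, with Rps2 at 0.40 ± 0.07 (SE). Reads of ribosomal protein genes may be split with near-identical pseudogenes, which makes their counts uncertain.

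Some of the 50 genes enclose other genes. In the GENCODE M21 annotation, 7 of 50 genes (14%) enclose genes of small nucleolar RNAs, against 2.22% of the tested genes with an annotation. They are Dkc1, Gnl3, Ncl, Nop56, Nop58, Ppan and Wdr43, and all but Ppan rose in IL7 cultures. The 50 genes lie on 17 chromosomes, with Dkc1 on the X chromosome.

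Promoters are shown because MYC is the mutated factor and CACGTG the E-box it is known to bind. They reach from 250 bases before to 50 after the transcription start (RefSeq, GRCm38.p6), and 43 of 50 genes had an entry. CACGTG, which reads the same on both strands, was in 8 of them (18.6%), against 10.7% of 8763 tested genes and 7.24% of all 27025 genes in the table. It was in 6 of 27 promoters of genes that rose in IL7 cultures (22.2%) and in 2 of 16 of those that did not pass (12.5%). In the 250 bases before the start alone the share was 6.98%, against 8.80% of tested genes, so the order turned. With CACGTG or CACGCG, where CACGCG was sought on both strands, it was 44.2% against 26.9%. The genes with CACGTG were Mybbp1a, Nop2, Utp20, Grwd1, Imp4, Wdr43, Pes1 and Utp18. A match is a description of the letters in this window and not a binding site. The 4 of these with the smallest p in IL7 cultures are printed 5′ to 3′ on the strand of the gene, with CACGTG in capitals.
Mybbp1a (chr11:72441077-72441376, plus strand): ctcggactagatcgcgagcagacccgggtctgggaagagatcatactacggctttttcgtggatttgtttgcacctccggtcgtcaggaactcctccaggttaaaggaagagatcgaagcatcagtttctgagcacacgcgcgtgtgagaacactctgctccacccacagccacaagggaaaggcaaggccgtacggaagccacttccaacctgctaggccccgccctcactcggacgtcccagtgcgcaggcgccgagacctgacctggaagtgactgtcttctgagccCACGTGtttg
Nop2 (chr6:125131633-125131932, plus strand): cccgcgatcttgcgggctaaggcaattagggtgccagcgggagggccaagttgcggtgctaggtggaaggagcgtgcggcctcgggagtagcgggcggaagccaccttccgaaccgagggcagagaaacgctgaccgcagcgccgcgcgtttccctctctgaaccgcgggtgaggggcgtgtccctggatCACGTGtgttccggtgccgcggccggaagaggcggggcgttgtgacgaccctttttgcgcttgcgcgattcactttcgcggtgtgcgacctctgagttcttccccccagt
Utp20 (chr10:88826765-88827064, minus strand): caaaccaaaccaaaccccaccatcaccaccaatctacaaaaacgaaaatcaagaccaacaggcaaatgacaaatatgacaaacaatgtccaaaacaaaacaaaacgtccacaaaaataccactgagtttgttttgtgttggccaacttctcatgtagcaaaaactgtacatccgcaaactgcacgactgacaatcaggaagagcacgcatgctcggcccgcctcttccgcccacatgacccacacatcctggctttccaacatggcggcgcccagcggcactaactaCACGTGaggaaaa
Grwd1 (chr7:45830740-45831039, minus strand): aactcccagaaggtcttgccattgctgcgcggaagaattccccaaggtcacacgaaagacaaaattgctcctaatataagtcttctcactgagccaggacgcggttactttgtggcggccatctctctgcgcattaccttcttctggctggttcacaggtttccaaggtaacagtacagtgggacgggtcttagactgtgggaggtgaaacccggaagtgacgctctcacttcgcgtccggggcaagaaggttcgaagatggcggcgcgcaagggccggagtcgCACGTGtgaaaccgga
The first base of the motif lies 60 bases before the start in Nop2 and 40, 37 and 34 bases after it in Mybbp1a, Utp20 and Grwd1. Mybbp1a and Nop2 rose as given above, and Utp20 and Grwd1 by 0.56 ± 0.11 and 0.41 ± 0.08 on the log2 scale (SE; limma adjusted p = 0.0171 and 0.0180). Utp20 had normalised read counts of 1041, 1638 and 1816 in WT 1 to 3, and 1969.9, 2307 and 2191 in T58A 1 to 3, with the widest spread of pairs among the genes that rose.

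In LPS cultures the question was whether T58A changes these genes in splenic B cells. The fitted change was positive for all 50 genes (52.4% of all tested genes), with a median log2 change of 0.21 against 0.01 over all tested genes and a range from 0.02 for Bysl to 0.50 for Dkc1. No single gene passed. limma called 0 of 50, where 0.0% of 11291 tested genes rose, and 3 of the 50 had an unadjusted p under 0.05, as had 284 of all 11291 genes. On the recovered reads edgeR and DESeq2 called 0 of 50 as well. The T58A libraries all exceeded the WT libraries in 5 genes, Nop56, Dkc1, Ppan, Fbl and Nob1 (3.1% of all tested genes).

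Dkc1, on chromosome X from 75095854 to 75109777, had normalised read counts of 431, 465 and 630.0 in WT 1 to 3, and 769, 638 and 736 in T58A a, b and 3. The lowest T58A value was just above the highest WT value, that of WT 3, and the log2 change was 0.50 ± 0.18 (SE; limma adjusted p = 1.00). Nop56 was at 762, 868 and 958 in WT 1 to 3, and 1260.1, 1091 and 1124 in T58A a, b and 3, without overlap, a log2 change of 0.43 ± 0.15 (SE). Ppan, a factor of large subunit assembly, was at 390.1, 525 and 519 in WT 1 to 3, and 571, 687 and 679 in T58A a, b and 3. Here too the groups did not overlap, and the log2 change was 0.44 ± 0.17 (SE). Fbl changed by 0.32 ± 0.21 and Nob1 by 0.24 ± 0.14 (SE). The authors' deposited table gives an adjusted p for 42 of the 50 genes and has 4 higher under 0.05, Mybbp1a at 0.0273, Dkc1 at 0.0329, Nop56 at 0.0410 and Ppan at 0.0418. The count over all genes of that table is not given here, so these 4 have no share of all genes beside them.

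Mybbp1a was at 1474, 1947 and 2444 in WT 1 to 3, and 2019.8, 2440.0 and 2991 in T58A a, b and 3, with overlap between the groups, and changed by 0.36 ± 0.22 (SE). Heatr1 was at 899.8, 893 and 1316 in WT 1 to 3, and 1250.5, 999.9 and 1389 in T58A a, b and 3, a change of 0.24 ± 0.20 (SE). Rrp12 was at 310.5, 287 and 489 in WT 1 to 3, and 328, 290.3 and 489 in T58A a, b and 3. Its groups covered nearly the same range, with the third library of each genotype the highest, and its change was 0.03 ± 0.26 (SE). By role the medians were 0.32 for the particle proteins, 0.24 for the abundant nucleolar proteins, 0.22 for the large and 0.18 for the small subunit factors.

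The libraries of WT and T58A pair 3, both male and both numbered in the headers, had a median log2 difference of 0.02 over the 50 genes, with a range from -0.24 to 0.39. In that pair 28 of 50 genes were higher in T58A, and 5649 of all 11291 tested genes. T58A a against WT 1 gave 48 of 50 and a median of 0.41, with 5879 of all genes higher. T58A b against WT 2 gave 43 of 50 and 0.16, with 5849 of all genes higher. The headers do not give these 2 pairings. WT 3 was the highest WT library in 43 of 50 genes, and T58A b the lowest T58A library in 39. The 50 genes took 0.488%, 0.498% and 0.632% of the reads in WT 1 to 3, and 0.672%, 0.552% and 0.658% in T58A a, b and 3. With a block that joins T58A a to WT 1, limma called 0 of 50, with 18 of 50 and 1889 of all 11291 genes at an unadjusted p under 0.05 and a smallest adjusted p of 0.0858 among the 50, and DESeq2 called 0. With T58A b joined to WT 1 in its place, 2 of 50 and 317 of all genes had such a p. DESeq2 with T58A a joined to WT 1 gave 99.7% of all p-values within 1% of those in the authors' deposited table. With T58A b joined to WT 1 the share was 17.0%. Leaving out 1 library at a time gave medians from 0.13 without WT 2 to 0.33 without WT 3, and from 40 positive changes without WT 2 to 50.

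Of the other lists in LPS cultures none had a gene that passed limma. The 82 other assembly factors had a median of 0.13 (66 positive), the 14 polymerase I genes 0.15 (12), the 11 exosome subunits 0.17 (8) and the 50 ribosomal proteins 0.34 (48), with 3, 1, 1 and 8 genes among the 284 at an unadjusted p under 0.05. All 7 plasmablast markers had a negative change, with a median of -0.60 and summed levels of 44921 to 109302 in WT and 28416 to 73247 in T58A. B cell markers summed to 51146 to 54839 and 53057 to 57410, with 5 of 8 positive. Myeloid markers summed to 11366 to 13672 and 9915 to 11750.3, with 3 of 7 tested positive, and S100a8, S100a9, Mpo and Elane were at or under 3 reads in every library. Precursor markers summed to 1339 to 1609.6 and 1156 to 1513, with Vpreb2, Igll1 and Rag2 at or under 3 reads in every library. T and NK markers summed to 104 to 215 and 49.5 to 96.8, and Cd3e, Cd8a, Ncr1 and Klrb1c were at or under 3 reads in every library. Erythroid and megakaryocyte markers summed to 66.8 to 147 and 65.5 to 209, with 6 of 8 at or under 3 reads in every library. The part of these markers in the result was not tested.

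The difference of the T58A effect between the cultures was tested with a genotype by culture term across the 12 libraries. 0 of 50 genes passed limma, where 0.0% of 10767 tested genes passed, and 0 of the 50 had an unadjusted p under 0.05, against 479 of all 10767 genes. edgeR and DESeq2 also called 0 of 50. The change was smaller in LPS for 36 of 50 genes, against 4979 of all 10767 tested genes. The median difference (LPS minus IL7) of the 50 was -0.09 on the log2 scale, against 0.02 over all tested genes. That median was 0.0039 without IL7 WT 1, 0.0055 without LPS T58A b and 0.015 without LPS WT 3, with 26, 25 and 30 of 50 differences then positive. The 3 genes with the smallest p were Ddx21 (-0.35 ± 0.25), Rrp12 (-0.42 ± 0.31) and Heatr1 (-0.33 ± 0.24, SE), all with an adjusted p of 0.996 from limma. With blocks that join T58A a to WT 1, 0 of 50 passed, against 441 of all genes, and Rrp12 had the smallest adjusted p of the 50, 0.0625. Ppan had the largest positive difference, 0.25 ± 0.20 (SE). The SE of the difference in Ddx21 was 0.25 without and 0.11 with those blocks.

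**Figure D4:**
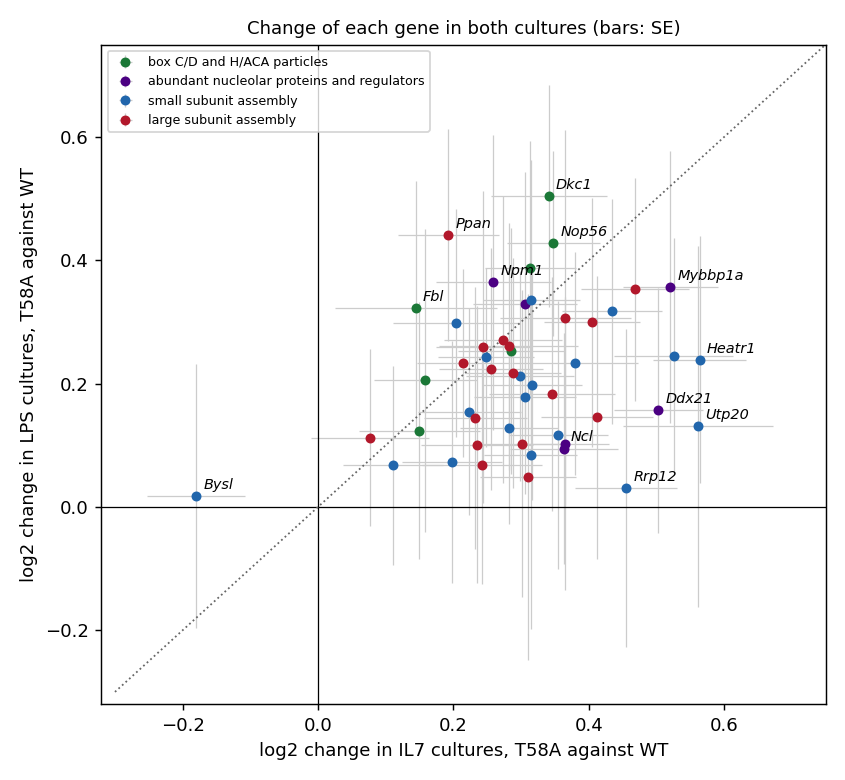
Log2 change of each of the 50 genes, T58A against WT, in IL7 cultures (x axis) and in LPS cultures (y axis), bars giving the SE, colours the role and the dotted line equal changes. All points lie above 0 on the y axis and all but Bysl right of 0 on the x axis, and the bars of the LPS changes are the longer ones.

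Some counts are uncertain because sequence is shared. Of the 50-base windows of the transcripts of Ddx18, 55.9% also occur in transcripts of other genes, and the shares were 32.8% for Tbl3, 24.3% for Npm1, 23.3% for Pes1, 19.7% for Fbl, 18.6% for Nop56 and 12.3% for Mrto4. In Tbl3, 37.3% of the exon bases overlap Noxo1 on the other strand. How the authors' counting treated such reads is not given in the sources used here.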

How the data were processed

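The submitters' processing notes name bcl2fastq 1.8.4, TopHat2 2.1.0, HTSeq 0.6.1, DESeq2 and the build mm10. Per culture the authors deposited a signal per gene and library, a read count divided by 1 factor per library, beside their own log2 fold changes and p-values. Steps in the signal gave whole reads, within 0.001, for 100% of values. The deposited signal was tested as log2(value + 1) with limma 3.58.1 (R 4.3.3) over all genes that passed filterByExpr of edgeR 4.0.16 (minimum count 10, minimum total 15), with Benjamini-Hochberg adjustment and a threshold of 0.05. Fold changes of low genes are understated on this scale.

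In IL7 cultures the pair was a block. Titles number the pairs, and the correlation across genes of deviations from group means was 0.41, 0.15 and 0.40 within pairs and -0.36 to -0.05 between them. Deviations from a group mean cancel out within the group, so the negative values follow from the positive ones and add no support of their own. DESeq2 1.42.0 with the pair gave 94.0% of the authors' p-values within 1%, against 15.8% without. In LPS cultures no block was used, because the headers do not give the pairing of T58A a and T58A b. The test of the difference between the cultures used none either. The counts called in IL7 and in LPS cultures thus come from unlike designs. The members, lists and the use of the block were chosen with earlier results of these data known.

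Named genes were, per role, the 2 smallest and the largest p in IL7, the 3 smallest in LPS and for the difference, any called against the majority, the most abundant, and 2 per other list, except that some genes of these lists are not reported here. Markers were given as sums. Alternatives were other scalings, filters, pseudocounts of 0.5 and 5, edgeR and DESeq2 on the recovered reads, sex as a term, the block, and leaving out libraries. Symbols were matched to GENCODE M21 (22709 of 24015). Figures were drawn with matplotlib 3.10.9.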

Additional observations from a re-analysis of the deposited data

How the results depend on the processing

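Under the other scalings, filters, pseudocounts, edgeR and DESeq2 with the same design, the count of the 50 genes that rose in IL7 cultures stayed between 24 and 32. Of all genes, 995 to 1505 were called there in either direction. In LPS cultures and for the difference the count of the 50 genes was 0 under every alternative. The paired analysis was the one reported in IL7 cultures. With no replicate block limma called 0 of the 50 genes and 0 of all genes, and in fits added after the data had been seen edgeR called 0 and 0 and DESeq2 8 and 296. With sex as a term the counts were 0 and 42 and the median change 0.21, with reversed changes for Fbl (-0.18) and Gnl2 (-0.12). Leaving out 1 pair gave 10 to 27 of the 50 and 775 to 1396 of all genes, and Gnl2 ran from -0.020 to 0.17. In LPS cultures all genes called were 1 with DESeq2, 4 with the replicate block that joins T58A a to WT 1, 176 and 1 with DESeq2 and T58A a or T58A b so joined (both also added later), and 0 to 6 with 1 library left out. Rrp12 then ran from -0.19 to 0.27 and Ddx10 from -0.048 to 0.15. For the difference between cultures all genes called were 4 with DESeq2, 441 with the block and 0 to 3 with 1 library left out. The share of promoters with CACGTG was 6.98% before the start alone and 44.2% with CACGCG included. The cause of these shifts was not tested. The 3 libraries per group and the sex difference in pairs 1 and 2 limit the values of both cultures, the Y-linked reads of 1 female WT library those of IL7, and the 2 columns under 1 header those of LPS cultures.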
